A study of Homo sapiens with 6 samples.

Results

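The genes described here set the pace of entry into the cell cycle: the D-type cyclins CCND1, CCND2 and CCND3, the kinases CDK4 and CDK6, the CDK inhibitors CDKN2A, CDKN2B and CDKN1B, the retinoblastoma gene RB1, and cyclin E, CCNE1. They were taken by symbol from the array's annotation, which named 17 probes for these 10 genes among 18852 named genes and 48803 probes. After a filter on detection, 12 of the 17 probes and 9 of the 10 genes entered the test, with CCND2 left out, among 12087 genes tested in all. The cells were ES-2, an established ovarian cancer line that the series describes as clear cell. They received either a hairpin inhibitor directed at the microRNA miR-182 (50 nM) or a negative control hairpin inhibitor based on a worm microRNA, both by transfection with the same reagent, and harvested 48 h later. Each group held 3 biological replicates on 1 array each. The comparison asks whether transcripts of the G1 machinery differ once miR-182 is inhibited.

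D-type cyclins bind CDK4 and CDK6 in response to growth signals, and the active kinases phosphorylate the RB protein. Phosphorylated RB releases E2F transcription factors, which switch on cyclin E and the genes of DNA replication. INK4 proteins such as p16INK4a and p15INK4b block CDK4 and CDK6, while p27, the product of CDKN1B, binds cyclin-CDK complexes and restrains CDK2. Loss of the CDKN2A locus, loss of RB1 and gain of CCNE1 are well known in cancer. Much of the control in this pathway acts on protein phosphorylation and turnover, which an array of transcripts does not measure.

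The agent acts on a short RNA whose bases 2 to 8, the seed in capitals, pair with target transcripts, and it is printed because it is the sequence the inhibitor is directed against. The labels do not say which arm the inhibitor covers, and the 5p arm is shown. It is taken from RefSeq (GRCh38.p14, chr7:129770447-129770470, minus strand).
hsa-miR-182-5p: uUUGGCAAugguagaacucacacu
Of 2370 mature human microRNAs in that table, 1 carries this seed, miR-182-5p itself. The annotation names no probe for miR-182, and its level was not read here.

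Between 41.7% and 46.0% of probes on an array were detected (detection p under 0.05), and the dimmest detected probe had a signal of 45.7 to 51.7 intensity units, depending on the array. Of the 5 ovarian carcinoma line markers with a named probe, KRT8, KRT18 and VIM were detected on all 6 arrays, PAX8 on 3 and KRT19 on none. Among markers of white blood cells, PTPRC was detected on 0 arrays, CD3E on 1, and CD14 and CD68 on all 6. Of the endothelial markers, VWF was detected on 0 arrays, and PECAM1 and CDH5 on all 6. Of the fibroblast markers, LUM was detected on 0 arrays, DCN on 3 and PDGFRB on 5. In intensity units, DCN (45 to 52.9), PDGFRB (50.4 to 56.8), PAX8 (41 to 55) and CD14 (57.2 to 64.7) lay near the dimmest detected signal. PECAM1 was at 72.7 to 98.5, while CDH5 (951.1 to 1210.4) and CD68 (1842.7 to 2223.5) were bright. The lists of other cell types held 11 genes, 10 of them with a named probe. Of the 6 that were tested, 0 passed.

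**Figure D1:**
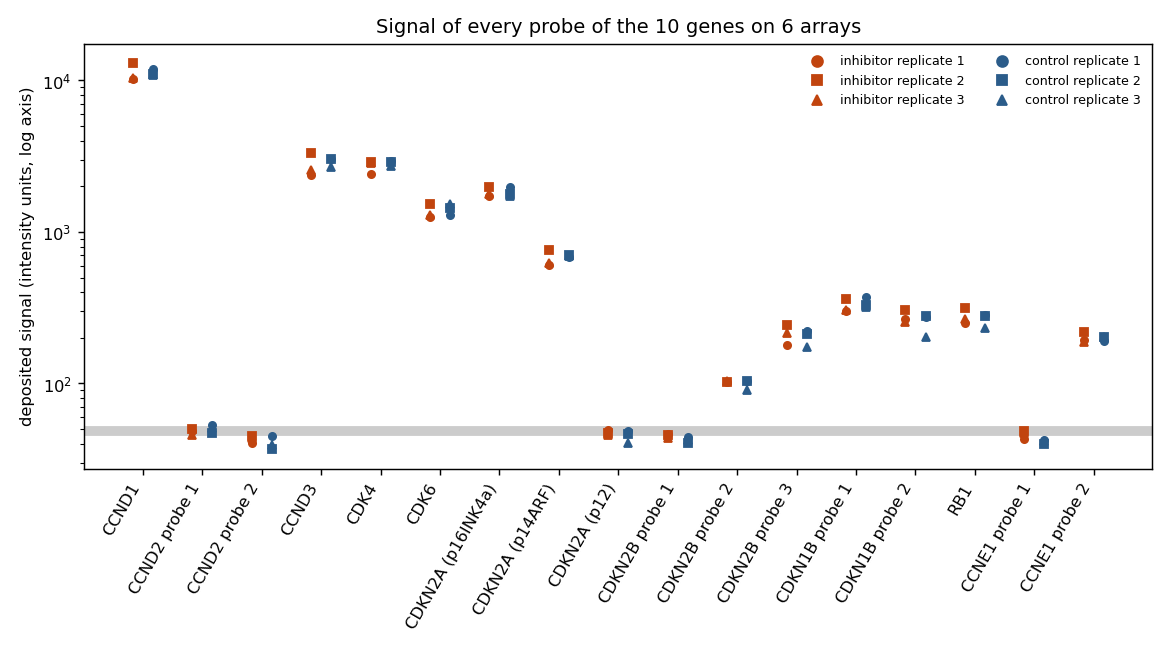
Deposited signal of each of the 17 probes on the 6 arrays, on a log axis, with inhibitor arrays in orange and control arrays in blue. The grey band spans the dimmest detected signal of the arrays (45.7 to 51.7). The 2 CCND2 probes, the CDKN2A p12 probe, 1 CDKN2B probe and 1 CCNE1 probe lie in, under or at the upper edge of the band, and the other 12 lie above it on every array.

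None of the 9 tested genes passed the test for a difference between the groups. At an adjusted p under 0.05 in limma, 0 of 9 passed, against 0% of all genes tested, and the lowest adjusted p among the 9 was 0.805. Their log2 differences, inhibitor minus control, ran from −0.079 (CDKN1B) to 0.068 (RB1), with 4 genes above 0 and 5 below. Of all genes tested, 50.0% lay above 0. At an unadjusted p under 0.05, 0 of 9 passed, beside 7.65% of all genes. In 0 of 9 did the 3 values of one group lie entirely above those of the other, a pattern seen in 13.0% of all genes. The median size of the difference, regardless of sign, was 0.037 in the 9 genes and 0.065 in all genes tested. All 9 intervals (95%) included 0 and none reached farther than 0.254 log2 units from it, which is 1.19-fold. These values come from 1 probe a gene, on the log2 scale after background correction and quantile normalization. The offset added in that correction compresses differences of dim probes, and the intervals make no allowance for it.

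**Figure D2:**
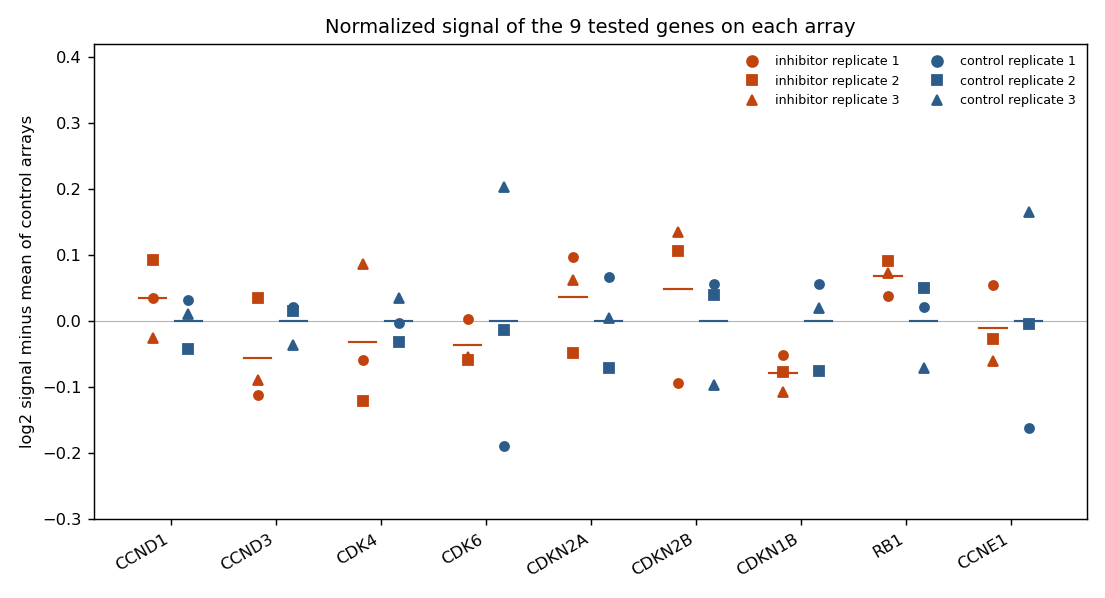
Normalized log2 signal of the 9 tested genes on each array, minus the mean of the control arrays. Short lines are group means, and each point is 1 array. The groups overlap for every gene, and the control arrays of CDK6 and CCNE1 spread farthest.

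Among the D-type cyclins, CCND1 was bright in both groups. With the inhibitor, its deposited signal was 10174, 12984.5 and 10441.7 intensity units, and in the control it was 11817.2, 11040 and 10842.1. On the normalized log2 scale these became 13.46, 13.52 and 13.40 with the inhibitor and 13.46, 13.38 and 13.44 in the control. The groups overlap: inhibitor replicate 2 is the highest of all 6 arrays and control replicate 2 the lowest. The log2 difference was 0.034 ± 0.065 (SE, n = 3 per group, limma adjusted p = 0.927), with a 95% interval of −0.112 to 0.180, and it lay at −0.004 after median scaling and −0.012 without normalization between arrays. The interval corresponds to 0.926-fold to 1.133-fold. Cyclin D1, its product, is the D-type cyclin most often over-produced in carcinomas.

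CCND3, which encodes cyclin D3, lay at 11.37, 11.51 and 11.39 with the inhibitor and at 11.50, 11.49 and 11.44 in the control. Inhibitor replicate 2 was above all control arrays and the other 2 inhibitor arrays were below them. CCND3 differed by −0.055 ± 0.067 on the log2 scale (adjusted p = 0.876), with a 95% interval of −0.207 to 0.096. Of the 2 D cyclins tested, CCND3 lay farther from 0, and its value moved between −0.100 and −0.027 as single arrays were left out, lying at −0.100 without inhibitor replicate 2.

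CCND2, the gene of cyclin D2, stayed at the edge of detection and was not tested. The brighter of its probes had signals of 48.5, 49.8 and 45.5 intensity units with the inhibitor and 52.9, 47 and 50.8 in the control. These deposited signals overlap between the groups. Against background, the detection p was 0.016, 0.064 and 0 on the control arrays, so 2 of 3 passed, while 0 of 3 inhibitor arrays did. After normalization the values were 4.49, 4.45 and 4.32 against 4.68, 4.54 and 4.87, with the groups apart. Without a detection filter, over 18852 genes, the fit gave −0.27 ± 0.09 (limma, unadjusted p = 0.0175, adjusted p = 0.674), so it did not pass. The other CCND2 probe was detected on 0 of 6 arrays and its signals of 36.8 to 45 gave a difference of 0.002.

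CDK4, the catalytic partner of the D cyclins, lay at 11.39, 11.33 and 11.53 with the inhibitor and at 11.44, 11.41 and 11.48 in the control. The inhibitor arrays lie on both sides of the control arrays, with replicate 3 the highest of the 6 and replicate 2 the lowest. On the log2 scale CDK4 differed by −0.031 ± 0.073 (adjusted p = 0.948), with a 95% interval of −0.195 to 0.132, and was 0.014 without inhibitor replicate 2.

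CDK6, the second D-cyclin kinase, was steady across the inhibitor arrays (10.43, 10.37 and 10.38) and spread across the control arrays (10.24, 10.42 and 10.63). Control replicate 1 was the lowest and control replicate 3 the highest of all 6, so the inhibitor values lie inside the range of the control. The SD was 0.034 in the inhibitor group and 0.197 in the control group. The groups differed by −0.037 ± 0.096 in log2 units (adjusted p = 0.958), with a 95% interval of −0.254 to 0.181, the widest of the 9 genes. Leaving out control replicate 3 gave 0.065, and leaving out control replicate 1 gave −0.132.

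CCNE1, which drives CDK2 after RB is phosphorylated, had the same order among the control arrays as CDK6. Its values were 7.49, 7.41 and 7.38 with the inhibitor and 7.28, 7.44 and 7.61 in the control. Again control replicate 1 was the lowest and control replicate 3 the highest array. CCNE1 differed by −0.011 ± 0.089 in log2 units (adjusted p = 0.992), with a 95% interval of −0.211 to 0.189. It was 0.072 without control replicate 3, 0.014 without inhibitor replicate 3 and −0.092 without control replicate 1. Over the 6 arrays the values of CDK6 and CCNE1 had a correlation of 0.97, given as a description of 6 points that share their normalization. This pair is named because it had the highest correlation of all pairs of tested members, and the others ran from −0.75 to 0.74. Only 1 of the 2 CCNE1 probes was detected, and the other, at 40.1 to 48.8 intensity units, was detected on 0 of 6 arrays.

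CDKN2A encodes different proteins from transcripts that start at separate promoters and share downstream exons: p16INK4a, which blocks CDK4 and CDK6, and p14ARF, which stabilises p53 by restraining MDM2. The array's annotation ties 1 probe to each of the p16INK4a, p14ARF and p12 transcripts, the last a splice form. Probe sequences were not used here, so whether a probe reads 1 transcript alone was not tested. The p16INK4a and p14ARF probes were detected on all 6 arrays and the p12 probe on none, at 40.5 to 49.1 intensity units.

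The 150 bases before 2 CDKN2A start sites are printed because the transcripts to which these probes are annotated begin at separate places. They come from RefSeq on GRCh38.p14, minus strand, and are named by position only. The stretch before the upstream start (chr9:21995325-21995474) was taken as p14ARF, and that before the downstream start (chr9:21974858-21975007) as p16INK4a. Which transcript begins at each start was not checked. Capitals mark a GC box (GGGCGG, or CCGCCC on the other strand), the letters that the factor SP1 is known to bind.
CDKN2A p14ARF: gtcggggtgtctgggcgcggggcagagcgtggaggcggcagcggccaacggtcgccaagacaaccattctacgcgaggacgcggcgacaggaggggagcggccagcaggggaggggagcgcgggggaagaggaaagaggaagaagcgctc
CDKN2A p16INK4a: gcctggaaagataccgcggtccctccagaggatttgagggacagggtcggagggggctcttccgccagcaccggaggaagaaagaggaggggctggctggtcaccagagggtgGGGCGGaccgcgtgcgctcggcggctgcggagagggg
The p16INK4a stretch holds 1 GC box and 12 CG pairs, and the p14ARF stretch holds 0 and 17. Of 35116 promoter windows of the same length, 36.8% hold a GC box, and the median number of CG pairs is 7. E2F motifs (TTTCCCGC, TTTCGCGC, TTTGCCGC or TTTGGCGC, either strand) were absent from the 12 windows of 300 bases that the table gives for 8 of the 10 genes, and 3.31% of all windows hold one. The only RB1 window in the table lies at an internal start site, so the main RB1 promoter was not searched. Only exact matches of the E2F motifs were counted. With a motif so rare among all windows, finding none in 12 says little about these genes.

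The p16INK4a probe had normalized values of 10.90, 10.75 and 10.86 with the inhibitor and 10.87, 10.73 and 10.81 in the control. Replicate 2 was the lowest array in each group, and the groups overlap. Inhibitor minus control came to 0.036 ± 0.071 log2 units (adjusted p = 0.931), with a 95% interval of −0.123 to 0.196. The p14ARF probe gave 9.34, 9.34 and 9.31 against 9.28, 9.37 and 9.49, and its inhibitor values lie within the range of the control. In a fit of every detected probe its log2 difference was −0.052 ± 0.073 (adjusted p = 0.913). The difference between the 2 probes' responses was 0.088 ± 0.108 (adjusted p = 0.913 in limma over the genes with 2 detected probes), so unequal change of the 2 transcripts was not shown.

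CDKN2B, a neighbour of CDKN2A, encodes p15INK4b, an inhibitor of CDK4 and CDK6 that TGF-beta is known to induce. Its brightest probe lay at 7.38, 7.58 and 7.61 with the inhibitor and at 7.53, 7.52 and 7.38 in the control. Inhibitor replicate 1 and control replicate 3 were both at 7.38, and the others lay close together. For this probe the log2 difference was 0.049 ± 0.082 (adjusted p = 0.918), with a 95% interval of −0.136 to 0.234, and was 0.120 without inhibitor replicate 1 and 0.001 without control replicate 3. A dimmer probe, annotated to the other CDKN2B transcript, gave 0.026 ± 0.087 (adjusted p = 0.973) from signals of 91.1 to 104.2 intensity units. The last of the 3 CDKN2B probes was detected on 0 arrays. At low signals the offset added in background correction compresses differences. Fold changes of CDKN2B, and of CCNE1 at 186.9 to 219.3 intensity units, are therefore understated more than those of brighter genes.

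Among the 9 tested genes CDKN1B lay farthest from 0, and its 2 probes lay on opposite sides. The brighter probe had values of 8.24, 8.21 and 8.18 with the inhibitor and 8.35, 8.22 and 8.31 in the control. Control replicate 2 lay within the inhibitor range, and the other 2 control arrays lay above it. The log2 difference was −0.079 ± 0.065 (adjusted p = 0.805), with a 95% interval of −0.226 to 0.069.

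The dimmer CDKN1B probe, annotated to the same transcript, had values of 8.03, 7.94 and 7.91 with the inhibitor and 7.86, 7.94 and 7.61 in the control. Here control replicate 3 stood below the other 5 arrays. Its log2 difference was 0.154 ± 0.093 (adjusted p = 0.762 in the fit of every detected probe), with a 95% interval of −0.057 to 0.364, and the mean over both probes gave 0.038. The responses of the 2 probes differed by −0.232 ± 0.119 (unadjusted p = 0.078, adjusted p = 0.763 in limma), which did not pass. Opposite signs were common: among 3257 genes with 2 detected probes, 45.7% had them on opposite sides of 0, as did CDKN1B and CDKN2A but not CDKN2B. The difference between 2 probes passed the adjusted threshold in 0% of these genes, and 223 of the 3257 had an unadjusted p under 0.05.

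**Figure D3:**
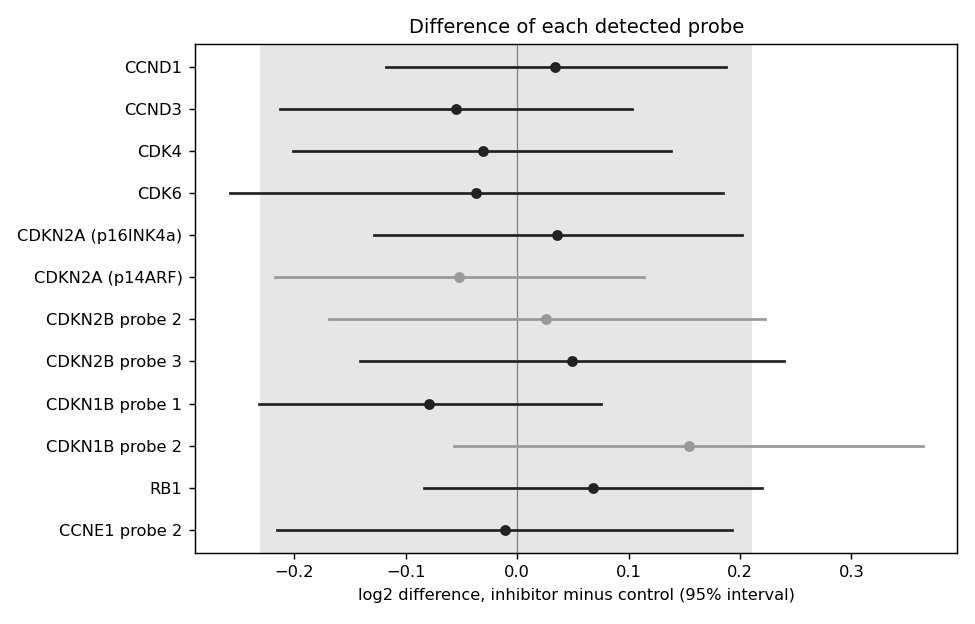
Log2 difference, inhibitor minus control, with its 95% interval, for the 12 detected probes, from the fit of every detected probe. Black marks the probe that stands for its gene and grey the others, and the shaded band holds the central 95% of all genes tested (−0.23 to 0.21). Every interval includes 0, and the dimmer CDKN1B probe lies farthest from it.

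RB1, whose protein is the target of these kinases, lay at 7.94, 8.00 and 7.98 with the inhibitor and at 7.93, 7.96 and 7.83 in the control. Inhibitor replicates 2 and 3 were above every control array, and inhibitor replicate 1 was below control replicate 2. RB1 differed by 0.068 ± 0.065 on the log2 scale (adjusted p = 0.840), with a 95% interval of −0.078 to 0.213, or 0.948-fold to 1.159-fold. Its sign was kept with every array left out in turn, at 0.032 to 0.093, with the lowest value without control replicate 3.

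The spread between arrays is given beside the error that the beads alone give, since each signal of the 17 probes is a mean over 23 to 67 beads. For RB1 the within-group SD was 0.049 log2 units and the bead error 0.054, and for CCND1 they were 0.050 and 0.045. For CDK6 the within-group SD was 0.142 and the bead error 0.053, and for CCNE1 they were 0.123 and 0.059. The dimmer CDKN1B probe had 0.130 against 0.071. Across all genes tested the median within-group SD was 0.095. The 2 measures are on different scales: the SD is that of normalized values, and the bead error is that of deposited signals, before background correction, which enlarges it for dim probes. On deposited signals the CCND1 inhibitor arrays had an SD of 1550 around a mean of 11200 intensity units, with a bead error of 2.7% to 3.53% of the signal on the 6 arrays.

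The wider pathway was read from lists that hold none of the 10 genes. No gene of the 6 lists passed the adjusted threshold in limma in either direction, and their medians lay between −0.059 and 0.055 log2 units, where the median of all genes was 0.000. In the list of E2F factors, their partners and the RB relatives, 6 of 11 tested genes lay above 0 and 5 below. Farthest from 0 were E2F8, a repressive E2F (−0.14 ± 0.09, adjusted p = 0.736), and TFDP2, a DNA-binding partner of the E2F factors (−0.12 ± 0.12, adjusted p = 0.842). E2F8 had values of 5.00, 4.89 and 5.02 against 5.12, 5.27 and 4.95, so its groups overlap. Of the other G1/S cyclins and kinases, 4 of 6 lay above 0, all within 0.053 log2 units of it, with MNAT1, the assembly factor of the CDK-activating kinase, at −0.05 ± 0.08 and CCNH, its cyclin, at 0.02 ± 0.07. The other CDK inhibitors were CDKN1A, which encodes p21 (−0.10 ± 0.07, adjusted p = 0.748), and CDKN2D, which encodes p19INK4d (−0.02 ± 0.07), with 2 of 4 tested.

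E2F target genes, 12 of 15 tested, lay above 0 in 8 cases, beside 50.0% of all genes, and had a median of 0.055. PCNA, the sliding clamp of DNA polymerase, lay at 11.01, 10.91 and 10.89 with the inhibitor and at 10.88, 10.76 and 10.71 in the control. Its groups were narrowly apart, with a log2 difference of 0.16 ± 0.07 (adjusted p = 0.667), and −0.020 with its next brightest probe. UHRF1, which recognises hemimethylated DNA, lay at 11.64, 11.60 and 11.64 against 11.49, 11.49 and 11.46. Its groups were apart too, with 0.15 ± 0.06 (adjusted p = 0.624), and −0.062 with its second probe. Groups lay apart in 3 of the 12 target genes, beside 13.0% of all genes.

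Genes of cyclin and p27 turnover lay above 0 in 9 of 12 cases, beside 50.0% of all genes, with a median of 0.053. In 3 of the 12 the groups lay apart, beside 13.0% of all genes. The 2 farthest from 0 were CUL1, the scaffold of the SCF ubiquitin ligase, and AMBRA1, which targets D cyclins for degradation. CUL1 lay at 8.98, 9.08 and 9.09 with the inhibitor and at 9.12, 9.36 and 9.34 in the control. All its control values were above its inhibitor values, with a log2 difference of −0.22 ± 0.08 (unadjusted p = 0.0234, adjusted p = 0.602). AMBRA1 differed by 0.13 ± 0.12 (adjusted p = 0.841). Its values of 4.75, 5.02 and 4.68 against 4.88, 4.73 and 4.45 lie near those of the untested CCND2 probe. Upstream factors lay below 0 in 7 of 12 cases, with a median of −0.010, and groups lay apart in 2 of the 12, STAT3 among them. They held STAT3, a cytokine-activated transcription factor (−0.16 ± 0.07, adjusted p = 0.624, and −0.105 with its second probe), and CBX7, a Polycomb protein that represses the CDKN2A locus (−0.15 ± 0.08, adjusted p = 0.709).

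**Figure D4:**
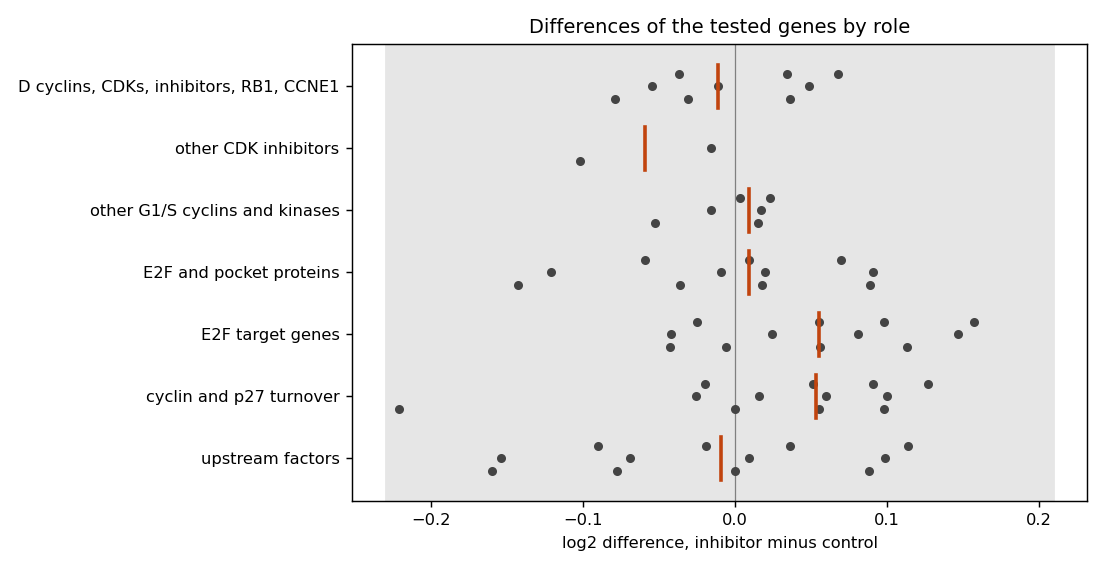
Log2 difference of each tested gene by role, with the median of each list as an orange line and the central 95% of all genes tested as a shaded band (−0.23 to 0.21). All points lie inside the band, and CUL1 (−0.22) lies farthest from 0.

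Genes whose values ran most like those of a member over the 6 arrays were sought for CCND1, CDK4 and CDKN1B among the 12078 other tested genes. For CCND1 they were DRAM1 (r = 0.989), MRPL57 (0.986) and USP19 (0.982). P4HA2 (0.990), MPLKIP (0.988) and ADAMTS15 (0.987) ran most like CDK4. TMEM178A (0.993), ANKRD29 (0.986) and CCDC102A (0.974) ran most like CDKN1B. For each of the 9 tested members the best match had an r of 0.979 to 0.996. With 6 points and so many genes, matches this close were found for every member, and they are a description only.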

How the data were processed

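The deposited array files give, per the file headers, 1 mean signal intensity a probe, the SD over beads (a signal in the same units), the count of beads and a detection fraction, of which 1 minus the value was used as detection p. The submitters' processing notes name BeadStudio, with no version. The authors' deposited value table holds normalized intensities. Bead addresses were paired with probe names through the order of signals on the 6 arrays, unique for all 48803 probes. Platform annotation gave 28098 probes 1 gene, 13 several and 20692 none.

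Intensities were corrected and quantile normalized with neqc (limma 3.58.1, R 4.3.3, offset 16). Probes detected on at least 3 arrays (p under 0.05) entered, and the probe with the highest mean stood for its gene. Groups were compared with lmFit and eBayes, 2-sided, adjusted by Benjamini-Hochberg over 12087 genes. The fit was also run on simulated independent normal values. These hold no array or batch effects, so that run cannot say how the fit behaves where such effects are present. Groups come from the sample descriptions, and the design text's word mimic was not followed. Replicates are labelled biological, and no slide or scan batch is given, so batches were not tested. Alternatives were other scalings, the deposited table, no background correction, other filters, trend, weights, probe means, a replicate block and leaving out each array.

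Named genes were all members, up to 2 genes per wider list farthest from 0 and the closest 3 matches of CCND1, CDK4 and CDKN1B. Members and lists were chosen with earlier results of these data known. RefSeq sequences are those of GRCh38.p14. The array data name no genome build, so the only coordinates given are those of the RefSeq sequences. The number of arrays limits the precision.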

Additional observations from a re-analysis of the deposited data

How the results depend on the processing

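Of 144 values of the 9 genes under the alternatives, 136 kept their sign, 8 turned and 0 passed the threshold. Many of these signs could not turn. The replicate block, the other filters and the trend leave each difference as in the main fit. The mean over probes leaves that of genes with 1 detected probe unchanged. Under 10 alternatives to the whole fit, CCND1 turned to −0.012 without normalization between arrays and to −0.004 after median scaling, and over the mean of detected probes CDKN2A turned to −0.008 and CDKN1B to 0.038. With 1 array left out, CDK4 ran from −0.090 to 0.014, CDK6 from −0.132 to 0.065 and CCNE1 from −0.092 to 0.072, while the other 6 genes kept their sign. CCND3, CDKN2B and RB1 kept theirs throughout. Over all genes, the count past the threshold was 0 with every other alternative and 5 without normalization between arrays (HILPDA, MYBPC1, SNAR-A1, HNRNPA1P33 and PXDN), and the cause was not tested. Without that normalization each of the 9 genes had the same SE, 0.137, beside 0.065 to 0.096 in the main fit. The labels do not say whether same-numbered arrays were handled together. Correlations of their deviations were 0.02, 0.00 and −0.01, beside −0.07 to 0.06 for arrays of unlike number. These do not settle it, since normalization removes array-wide shifts. With the replicate block 0 genes and 0 members passed, and 880 genes in place of 925 had an unadjusted p under 0.05. Signal close to background limits what can be said of CCND2, E2F8, AMBRA1 and the dimmer CDKN2B probe.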
